A study of Homo sapiens with 22 samples.

Results

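The nuclear genes for oxidative phosphorylation were taken from the RNA-sequencing (RNA-seq) values of MDA-MB-231 cells, an established triple-negative breast cancer (TNBC) line, as every gene whose symbol begins with NDUFA, NDUFB, NDUFC, NDUFS, NDUFV, UQCR, ATP5 or COX4 to COX8, together with SDHA, SDHB, SDHC, SDHD and CYC1. The rule matched 101 symbols, of which 3 antisense genes and 3 pseudogenes were left out, so that 95 genes of the 20668 in the files remained. By their known roles, 44 belonged to complex I (37 subunits and 7 assembly factors), 4 to complex II, 10 to complex III, 17 to complex IV and 16 to complex V. The other 4 carry a matching symbol but encode no subunit, namely ATP5S, ATP5SL and the readthrough loci NDUFC2-KCTD14 and ATP5J2-PTCD1. All cells had spent 3 days in medium free of phenol red with charcoal-stripped serum, which removes steroids, before they received vehicle, 100 nM dexamethasone (Dex) or 10 μM compound A (CpdA). Dex is a synthetic glucocorticoid that activates the glucocorticoid receptor (GR), and CpdA is a non-steroidal GR ligand. RNA was collected at 2 h and 4 h of each ligand, and each of the 5 groups held 2 biological replicates. Both vehicle samples served every comparison with vehicle. Their labels give no time point, while the headers of their deposited values name 2 h for replicate 1 and 4 h for replicate 2, so that time and replicate cannot be told apart between them. All samples came from 1 cell line. In such bulk RNA, fewer cells with a transcript and less of it per cell cannot be told apart.

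Oxidative phosphorylation takes place in the inner mitochondrial membrane. Complexes I and II pass electrons from NADH and succinate to ubiquinone, complex III passes them to cytochrome c, and complex IV passes them to oxygen. Complexes I, III and IV pump protons out of the matrix, and complex V, the ATP synthase, lets them flow back to make ATP. All subunits of complex II and most subunits of the other complexes are encoded in the nucleus, with the rest encoded by mitochondrial DNA. NRF1, NRF2 (GABP) and YY1 are transcription factors known for binding the promoters of many of these genes, and PGC-1α, encoded by PPARGC1A, is their best known coactivator.

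The values were reads per kilobase of transcript, scaled to the mapped reads of each sample (RPKM), so levels of different genes can be compared per length. Total reads were not given, and the depth of each sample relative to vehicle replicate 1, read from the size of the smallest step in RPKM, was 1.01 for the other vehicle sample and 1.06 to 1.21 for the 8 treated samples, so both vehicle samples were the shallowest. FKBP5, a GR target, was at 5.94 and 7.06 RPKM in vehicle, 75.0 and 73.4 after 2 h of Dex and 203 and 212 after 4 h, against 5.97 to 7.96 in the 4 CpdA samples. By limma it was still above vehicle after CpdA 4 h (log2 difference 0.28, adjusted p = 0.023). TSC22D3, the other control gene for Dex, was at 9.79 and 8.22 in vehicle, 302 to 315 after Dex and 10.5 to 12.4 after CpdA. It was above vehicle after CpdA 2 h (0.44, adjusted p = 0.0092) and 4 h (0.27, adjusted p = 0.030). The hormone receptor genes ESR1 and PGR were at or near 0 in all samples, VIM was at 1270 to 1460 RPKM and CDH1 at 0.226 to 0.465, as known for this mesenchymal-like line, while ERBB2 was at 15.9 to 21.6. The epithelial genes EPCAM and KRT18 were at 8.02 to 10.6 and 164 to 218 RPKM, so not every epithelial gene was as low as CDH1. Of genes of other cells, the leukocyte gene PTPRC stayed at or under 0.063 RPKM, ALB at or under 0.0317 and PECAM1 at or under 0.324. COL1A1 was at 1.23 to 2.6. Mitochondrially encoded subunits are not analysed here.

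Of the 95 genes, 89 reached 0.5 RPKM in at least 2 samples and were tested, and those 89 spanned a wide range of levels. The epsilon subunit of the F1 part of ATP synthase, ATP5E, was the highest at a mean of 348.7 RPKM over the 10 samples, followed by COX8A, a small subunit of complex IV, at 335.9 and by ATP5B, the catalytic beta subunit of F1, at 243.8. COX7C, another small complex IV subunit, had a mean of 187.7. The highest of complex I were the accessory subunits NDUFS5 (163.3) and NDUFA1 (146.1), and the highest of complex III were cytochrome c1, CYC1 (99.6), and the core protein UQCRC1 (74.8). The highest of complex II were lower, the iron-sulfur subunit SDHB at 54.8 and the flavoprotein SDHA at 40.3. Its membrane anchors SDHD and SDHC were at 26.1 and 11.2. As a median over all members, complex II was at 33.2 RPKM, beside 30.5 for complex I, 43.5 for III, 67.9 for IV and 76.6 for V. Within complex I the 7 core subunits, which carry out electron transfer, had a median of 35.6 RPKM and the 30 accessory subunits a median of 42.2, while the 7 NDUFAF assembly factors had a median of 5.29. Within complex V the median was 135 over 5 F1 subunits and 62.9 over 11 Fo or stalk subunits, ATP5L2 included.

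**Figure D1:**
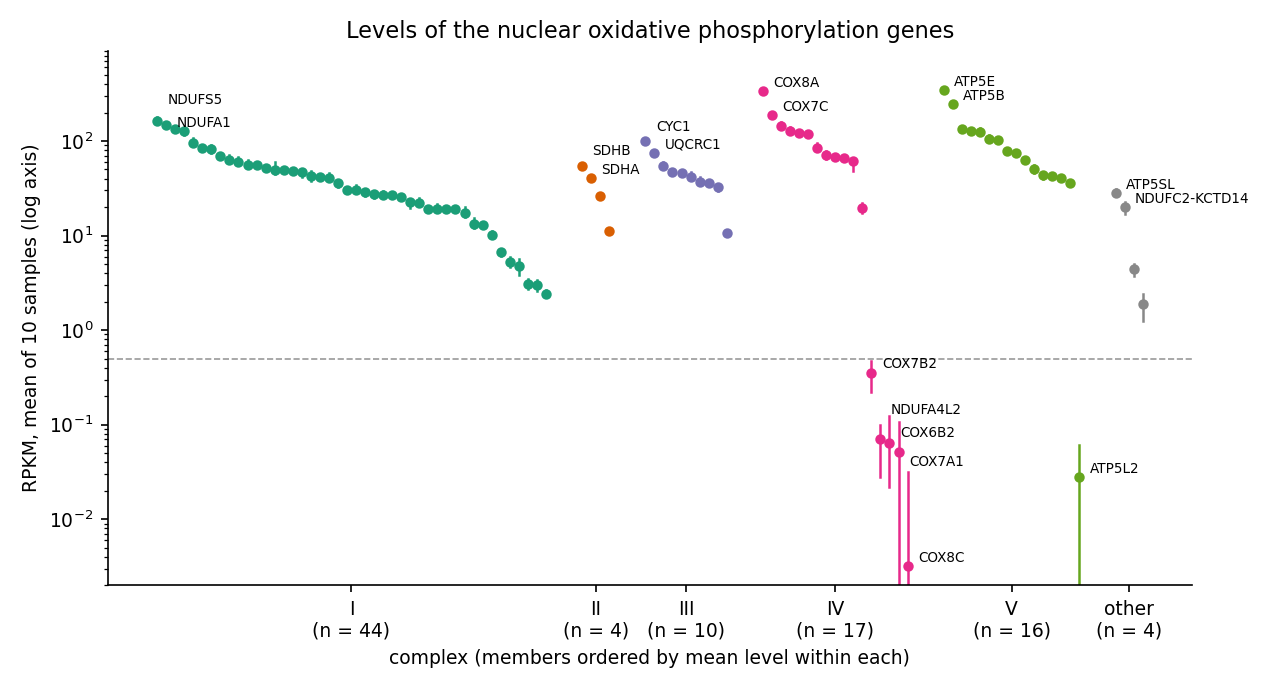
Mean RPKM over the 10 samples (points, log axis) and the lowest to highest sample (lines, running off the axis where a sample is at 0) for the 95 genes, ordered by level within each complex, with the 0.5 RPKM filter dashed. ATP5E and COX8A lead at 348.7 and 335.9 RPKM, and 6 isoform genes of complexes IV and V lie below the dashed line.

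The 6 genes that were not tested are alternative isoforms of expressed subunits. COX7B2, known from testis, reached 0.222 to 0.467 RPKM, whereas its common counterpart COX7B had a mean of 118.7. COX7A1, the heart and muscle isoform, was at 0 to 0.108 and COX7A2, the widely expressed form, at a mean of 84.7. NDUFA4L2 stayed at or under 0.0985 RPKM against a mean of 19.6 for NDUFA4, a protein first assigned to complex I and now to complex IV. COX6B2 did not exceed 0.124, with COX6B1 at 143.7, COX8C was listed at 0 in all samples but 1, and ATP5L2 did not exceed 0.0605. Thus in each of these pairs the widely expressed isoform was the higher in all 10 samples, also after either ligand. COX4I1 had a mean of 121.9 RPKM, and COX4I2 and COX6A2 are not analysed here.

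Where several isoforms were expressed, their ratio moved little. ATP5G1, ATP5G2 and ATP5G3 encode the same mature c subunit of the Fo ring with different mitochondrial targeting sequences. ATP5G2 was 1.45 ± 0.051 times as high as ATP5G1 (SD, n = 10 samples, range 1.38 to 1.55) and 1.56 ± 0.066 times as high as ATP5G3 (range 1.47 to 1.67). No 50-base window of one of these transcripts was found in another, so reads of that length can tell them apart. COX7A2 was 1.25 ± 0.060 times as high as COX7A2L (range 1.15 to 1.33), a related protein known for holding respiratory supercomplexes together.

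The level of the whole set differed little between groups. Summed over its members, complex I was at 1893 and 1902 RPKM in vehicle, 1956 and 1869 after Dex 2 h, 2102 and 1852 after Dex 4 h, 1968 and 1910 after CpdA 2 h, and 2004 and 1959 after CpdA 4 h. The lowest and the highest of these 10 sums were both Dex 4 h samples, so the Dex groups overlapped vehicle, while both samples of each CpdA group lay above vehicle. Complex IV was at 1349 and 1341 in vehicle, 1437 and 1350 after Dex 2 h, 1519 and 1346 after Dex 4 h, 1455 and 1387 after CpdA 2 h, and 1465 and 1422 after CpdA 4 h. For complex IV only Dex 4 h replicate 2 fell within the vehicle range, and the other 7 treated samples were above it.

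For the other complexes the sums lay on both sides of vehicle. Complex V was at 1592 and 1588 RPKM in vehicle and at 1552 to 1704 in the treated samples, complex III was at 472.3 and 472.0 in vehicle and at 456.9 to 512.8 in the treated samples, and complex II was at 131.1 and 130.9 in vehicle and at 128.1 to 136.1 in the treated samples. In each of the 3 both CpdA 4 h samples were above vehicle. The mean sum after CpdA 4 h was above vehicle by 4.43% for complex I, 3.00% for complex II, 1.91% for complex III, 7.34% for complex IV and 3.97% for complex V. After Dex 4 h these differences were 4.18%, 0.44%, 3.00%, 6.52% and 2.83%, and the gap between the 2 replicates was larger than the difference in every complex.

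**Figure D2:**
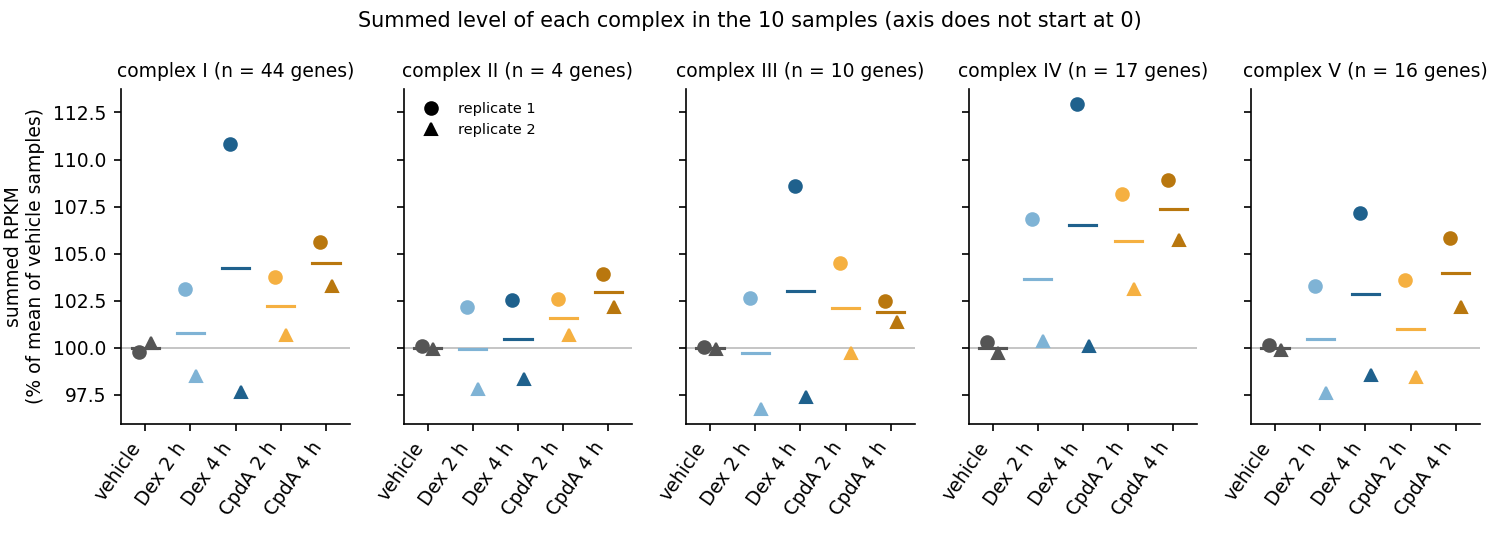
Summed RPKM of complexes I to V in each sample as a percentage of the mean of the vehicle samples, with replicate 1 as circles, replicate 2 as triangles and group means as bars. Dex 4 h replicate 1 lies above replicate 2 in all 5 complexes, by 4.26% in complex II and 13.5% in complex I, while the vehicle samples nearly coincide.

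Replicate 1 lay above replicate 2 in all 4 treated groups. Of the 89 tested genes, 79 were higher in replicate 1 after Dex 2 h, 84 after Dex 4 h, 71 after CpdA 2 h and 60 after CpdA 4 h, against 46 in vehicle. Over all 12713 genes tested, replicate 1 was the higher for 49.5% to 53.0% of genes in the 5 groups. After Dex 4 h the median difference between replicates, on the log2 scale, was 0.15 over the members, 0.11 over 77 mitochondrial ribosomal protein genes, 0.18 over 80 cytosolic ribosomal protein genes and 0.11 over 46 proteasome genes. The shift was therefore shared with other groups of housekeeping genes.

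Transcript length moved with this difference. The median annotated transcript of the members was 902 bases long, against 3162 bases over all genes tested that had a length, and 48 of the 89 members were at most 1 kb long. After Dex 4 h, the median log2 difference between replicates over all genes was 0.16 for transcripts under 1 kb and -0.13 for those over 4 kb, whereas for vehicle these medians were within 0.02 of 0. The other treated groups had smaller medians with the same signs. They were 0.06 and -0.02 after Dex 2 h, 0.05 and -0.03 after CpdA 2 h, and 0.03 and -0.02 after CpdA 4 h. Members under 1 kb had a median of 0.17 after Dex 4 h, and the 9 members over 4 kb had one of 0.14, on the opposite side of 0 from all genes of that length. The part of transcript length in the values of the members was not tested. The Dex 4 h comparisons are therefore also given without each of these replicates.

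**Figure D3:**
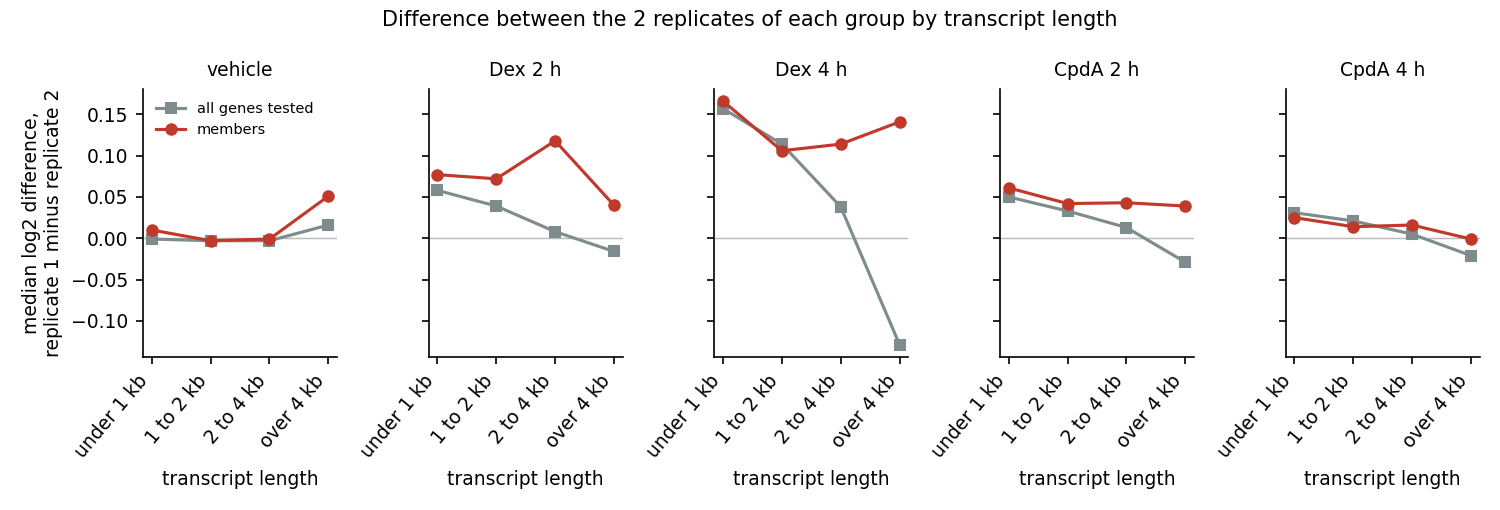
Median log2 difference between replicate 1 and replicate 2 in each group, by annotated transcript length, for all genes tested (grey squares) and for the members (red circles). The lines for all genes are flat in vehicle and steepest after Dex 4 h, from 0.16 under 1 kb to -0.13 over 4 kb.

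Against vehicle, 1 of 89 members was higher after Dex 2 h and 0 were lower by limma, where 4.49% of all genes tested were higher and 5.82% lower at an adjusted p under 0.05. At an unadjusted p under 0.05, 3 members were higher and 2 lower. With quantile normalization 3 were higher and 1 lower at the adjusted threshold, beside 5.06% and 5.57% of all genes. After Dex 4 h, 2 members were higher and 1 was lower, where 9.26% and 18.2% of all genes were. With samples scaled to the same median 8 members were higher and 0 lower, beside 12.6% and 12.6% of all genes. At an unadjusted p under 0.05, 8 were higher and 2 lower. After CpdA 2 h, 1 member was higher and 0 were lower, beside 1.89% and 4.29% of all genes, and 6 members were higher and 2 lower at an unadjusted p under 0.05. After CpdA 4 h, 6 members were higher and 0 lower, beside 6.76% and 13.8% of all genes, with 12 members higher and 3 lower at an unadjusted p under 0.05. All shares of all genes refer to the adjusted threshold. Shares at an unadjusted p under 0.05 were not counted, here or below, so the unadjusted counts have no background beside them. The single call at Dex 2 h was lost without vehicle replicate 2 or Dex 2 h replicate 1, the single call at CpdA 2 h without vehicle replicate 2 or either CpdA 2 h sample, and the 6 calls at CpdA 4 h became 2 without vehicle replicate 2, 1 without CpdA 4 h replicate 1 and 2 without CpdA 4 h replicate 2. Scaling moved the counts at CpdA 4 h too, to 11 higher and 1 lower with quantile normalization (9.46% and 10.8% of all genes), 10 and 0 with median scaling (10.9% and 8.64%), and 11 and 0 with median-of-ratios scaling (8.77% and 11%).

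The median log2 difference of the members from vehicle was 0.00 after Dex 2 h, 0.04 after Dex 4 h, 0.02 after CpdA 2 h and 0.07 after CpdA 4 h, while over all genes tested it was -0.02, -0.05, -0.02 and -0.04. Median scaling gave 0.11 for Dex 4 h and 0.13 for CpdA 4 h, beside 0.02 and 0.03 over all genes, and median-of-ratios scaling gave 0.09 and 0.10, beside -0.01 for both. By complex, medians at 4 h of Dex were 0.04 for complex I, 0.01 for complex II, 0.04 for complex III, 0.11 for complex IV and 0.03 for complex V. At 4 h of CpdA they were 0.06, 0.08, 0.07, 0.11 and 0.06. Complex IV had the highest median in all 4 comparisons with vehicle, which share their vehicle samples. Without Dex 4 h replicate 1 the median of the members at Dex 4 h was -0.03 with 3 called, and without replicate 2 it was 0.11 with 29 called, of which 28 were higher and 1 lower. In the latter setting 13.3% of all genes were higher and 24.2% lower.

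The intervals of the differences were narrow. The 95% interval lay within 1.2-fold of vehicle for 80 of 89 members after Dex 2 h, 69 after Dex 4 h, 72 after CpdA 2 h and 67 after CpdA 4 h. It lay within 1.5-fold for 88 members after Dex 2 h and for all 89 in the other 3 comparisons. For genes at 10 RPKM or more, the intervals within 1.2-fold made up 73.9%, 61.4%, 74.3% and 60.0% of all genes in the same order, and 89.9%, 77.5%, 80.9% and 75.3% of the members, which include 8 below that level. The highest of the 10 samples exceeded the lowest by a median of 1.16-fold over the 81 members at 10 RPKM or more, against 1.22-fold over all 5707 such genes, and all 81 stayed under 1.5-fold, as did 84.3% of those genes. All 4 genes of complex II had intervals within 1.2-fold in every comparison with vehicle. SDHA was at 39.4 and 41.7 RPKM in vehicle and between 38.9 and 41.8 in the 8 treated samples. Of the 50-base windows of their transcripts, 61.1% for SDHC, 50.3% for SDHD, 21.3% for SDHA and 0% for SDHB also occur elsewhere in the genome. The part of shared reads in their values was not tested.

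**Figure D4:**
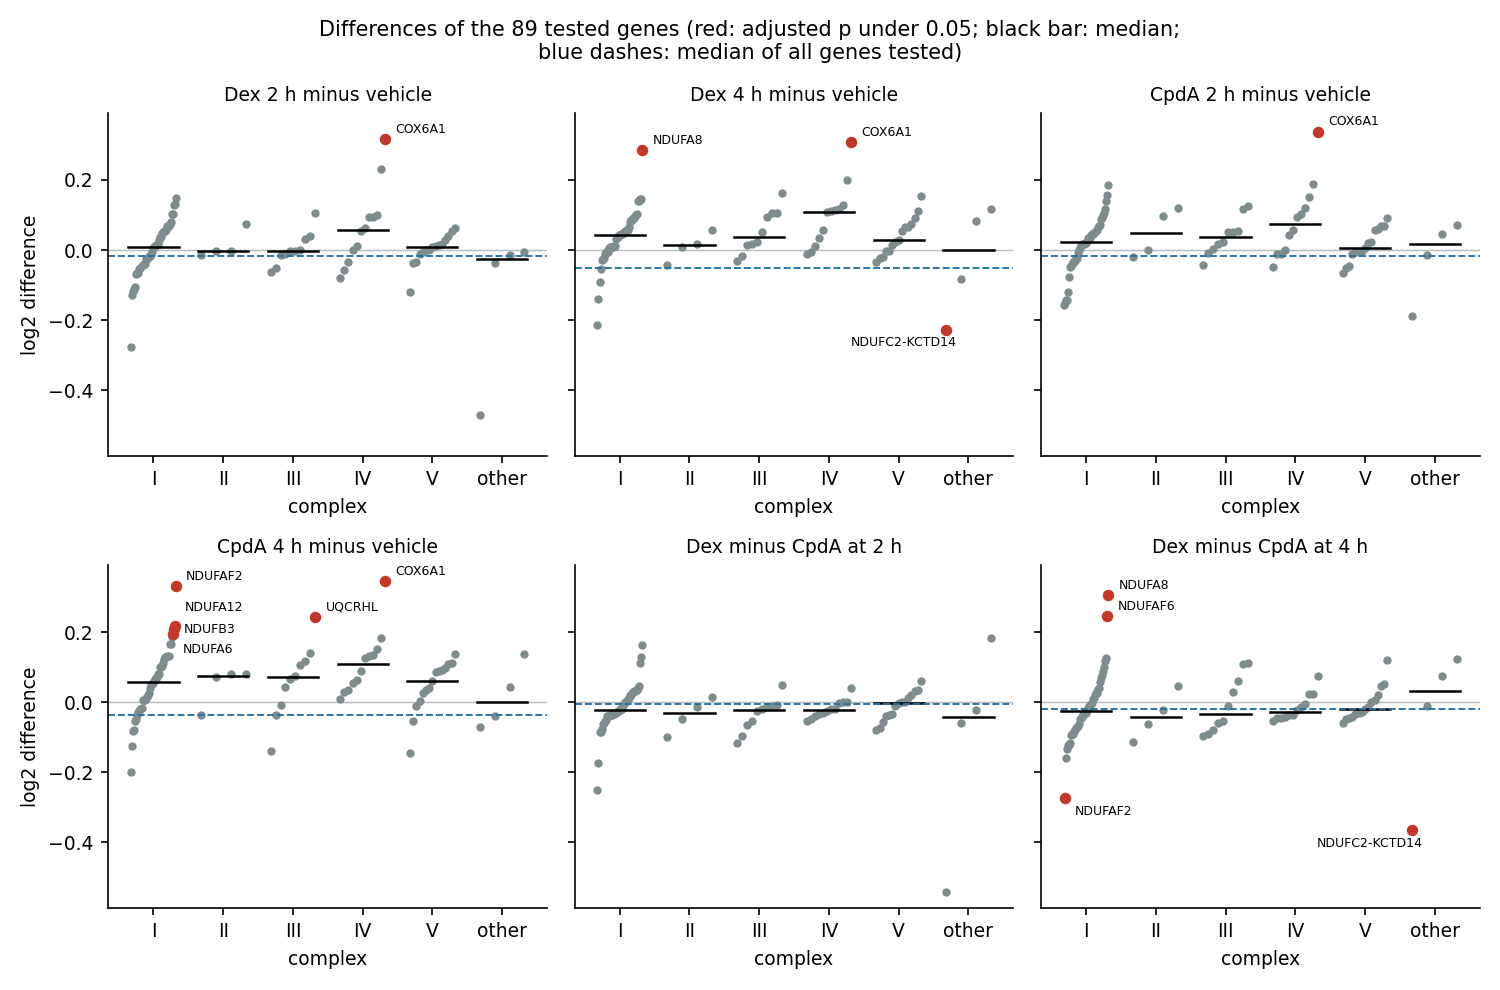
Log2 differences of the 89 tested genes in 6 comparisons, by complex, with genes past the test in red, medians as black bars and the median of all genes tested as a dashed line. COX6A1 is past the test against vehicle in all 4 treated groups, and most members lie within 0.2 of 0.

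COX6A1, the widely expressed form of subunit VIa of complex IV, was the only member that rose by the test in all 4 treated groups. It was at 52.7 and 48.3 RPKM in vehicle, 65.9 and 59.9 after Dex 2 h, 64.9 and 60.2 after Dex 4 h, 65.7 and 61.9 after CpdA 2 h, and 66.1 and 62.2 after CpdA 4 h. Both vehicle samples were below all 8 treated samples, and the treated groups overlapped each other. The log2 difference was 0.32 ± 0.07 (SE, adjusted p = 0.016) for Dex 2 h, 0.31 (adjusted p = 0.0083) for Dex 4 h, 0.34 (adjusted p = 0.020) for CpdA 2 h and 0.35 (adjusted p = 0.0068) for CpdA 4 h, or 1.24-fold to 1.27-fold. Between Dex and CpdA it differed by -0.02 at 2 h (95% interval -0.17 to 0.13) and by -0.04 at 4 h (-0.19 to 0.11). Of the vehicle samples, replicate 1 is the one whose header names 2 h, and the header of replicate 2 names 4 h. Leaving out replicate 2 thus leaves the 2 h comparisons with the vehicle sample headed 2 h. Without vehicle replicate 2, which holds the lowest value, the adjusted p was 0.12 for Dex 2 h, 0.058 for Dex 4 h and 0.14 for CpdA 2 h. It was 0.14 for Dex 2 h without Dex 2 h replicate 1, 0.18 and 0.077 for CpdA 2 h without CpdA 2 h replicate 1 or 2, and 0.066 for CpdA 4 h without CpdA 4 h replicate 1. The COX6A1 calls at Dex 2 h and CpdA 2 h were also lost without a filter (adjusted p = 0.054 and 0.068) and without moderation of the variance (0.094 and 0.11). Without a trend the CpdA 2 h call was lost too (0.051). COX6A1 lies at chr12:120875893-120878540 (GRCh37, plus strand, 3 exons), and 59.8% of the 50-base windows of its transcript also occur in the processed pseudogene COX6A1P2 on chromosome 6. A gene without a symbol on the same strand also overlaps its exons.

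The other complex IV subunits did not pass the test in any comparison. NDUFA4 was at 18.4 and 17.3 RPKM in vehicle and at 22.0 and 19.9 after Dex 2 h, a log2 difference of 0.23 (adjusted p = 0.060). COX7A2 differed by 0.20 after Dex 4 h (adjusted p = 0.061). COX8A was at 312.2 and 314.2 in vehicle and at 315.0 to 366.9 in the treated samples, all of them above vehicle, with log2 differences of 0.10 to 0.15 that did not pass.

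NDUFA8, an accessory subunit of complex I on the outer face of its membrane arm, was higher than vehicle after Dex 4 h. It was at 45.9 and 46.7 RPKM in vehicle, 52.6 and 48.7 after Dex 2 h, 59.8 and 53.4 after Dex 4 h, 47.5 and 46.2 after CpdA 2 h, and 45.2 and 46.2 after CpdA 4 h. Both Dex 4 h samples were above all others, and the CpdA groups overlapped vehicle. The log2 difference from vehicle was 0.29 ± 0.06 after Dex 4 h (SE, adjusted p = 0.0063), or 1.22-fold, and 0.13 after Dex 2 h (adjusted p = 0.25). At 4 h it was above CpdA by 0.31 (adjusted p = 0.0035), and leaving out any single sample ended neither of the Dex 4 h calls, with values of 0.20 to 0.37 against vehicle. The difference between the time changes of the ligands, 0.19, did not pass the test (adjusted p = 0.24).

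NDUFAF2, an assembly factor of complex I that is related in sequence to the subunit NDUFA12, was highest after CpdA 4 h. It was at 16.0 and 15.6 RPKM in vehicle, 17.8 and 17.3 after Dex 2 h, 16.6 and 16.3 after Dex 4 h, 17.3 and 16.9 after CpdA 2 h, and 20.1 and 19.7 after CpdA 4 h. The CpdA 4 h samples stood above the other 8, and every treated sample was above both vehicle samples. The log2 difference from vehicle was 0.33 ± 0.04 after CpdA 4 h (SE, adjusted p = 0.00067), or 1.26-fold, and 0.15 after Dex 2 h (adjusted p = 0.051). Dex was below CpdA at 4 h by 0.27 on the log2 scale, a difference of -0.27 (adjusted p = 0.00078). From 2 h to 4 h of CpdA it rose by 0.21 (adjusted p = 0.012), a call that was lost without any 1 of the 4 CpdA samples (adjusted p = 0.076 to 0.11). The gene spans chr5:60241004-60450358 (GRCh37, plus strand), and 43.2% of its transcript windows also occur in the processed pseudogene NDUFAF2P1 on chromosome 2.

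At CpdA 4 h, 3 further subunits of complex I and 1 of complex III rose by smaller amounts. NDUFA12, a subunit next to the NADH-oxidizing end of complex I, was at 75.5 and 76.3 RPKM in vehicle and 89.6 and 87.1 after CpdA 4 h (log2 difference 0.22, adjusted p = 0.049). NDUFB3, a subunit of the membrane arm, was at 19.8 and 21.2 in vehicle and 22.9 and 24.5 after CpdA 4 h (0.21, adjusted p = 0.048). NDUFA6, a small LYR-motif subunit named after its values were seen because it was the 6th of the 6 members that rose, was at 25.4 and 24.9 and then 28.2 and 29.4 (0.195, adjusted p = 0.034). In none of these genes did the CpdA 4 h samples overlap vehicle. The same held for the other treated groups, although only the differences at CpdA 4 h passed the test against vehicle. Over all treated samples of both ligands, NDUFA12 was at 77.3 to 90.5 RPKM, NDUFB3 at 21.3 to 24.5 and NDUFA6 at 25.5 to 29.4. The highest NDUFA12 value, 90.5, was that of Dex 4 h replicate 1. All 3 calls were lost without any 1 of the 4 samples concerned, with adjusted p from 0.12 to 0.22 for NDUFA12, from 0.053 to 0.27 for NDUFB3 and from 0.085 to 0.21 for NDUFA6. Without a filter, without a trend and without moderation of the variance all 3 calls were lost as well (adjusted p from 0.064 to 0.14). The NDUFB3 call was also lost with a replicate block (adjusted p = 0.054) and with only these 4 samples (0.053).

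UQCRHL rose with them. It is an intronless copy of UQCRH, which encodes the hinge protein of complex III that contacts cytochrome c1. UQCRHL was at 30.1 and 29.3 RPKM in vehicle, 32.1 and 31.9 after Dex 2 h, 33.2 and 33.5 after Dex 4 h, 34.3 and 30.2 after CpdA 2 h, and 35.1 and 35.3 after CpdA 4 h. Its CpdA 4 h samples were above all others, with a log2 difference from vehicle of 0.24 ± 0.06 (SE, adjusted p = 0.015), and the call was lost without vehicle replicate 2 or either CpdA 4 h sample (adjusted p = 0.069, 0.085 and 0.092). Without moderation of the variance the UQCRHL call was lost too (adjusted p = 0.057). UQCRH was at 52.4 and 51.8 in vehicle and 55.3 and 59.6 after CpdA 4 h, a difference of 0.14 that did not pass (adjusted p = 0.19). The open reading frames of both genes are 276 bases long and 98.6% identical, as read from the GRCh37 transcripts and shown here because the resemblance decides how reads can be assigned. Capitals mark the 4 bases at which they differ.
UQCRH: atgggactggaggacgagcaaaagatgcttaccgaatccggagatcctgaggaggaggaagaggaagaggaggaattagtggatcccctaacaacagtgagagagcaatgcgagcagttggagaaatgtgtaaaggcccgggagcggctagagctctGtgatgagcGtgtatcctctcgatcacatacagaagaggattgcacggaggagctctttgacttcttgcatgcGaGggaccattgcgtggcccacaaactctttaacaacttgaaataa
UQCRHL: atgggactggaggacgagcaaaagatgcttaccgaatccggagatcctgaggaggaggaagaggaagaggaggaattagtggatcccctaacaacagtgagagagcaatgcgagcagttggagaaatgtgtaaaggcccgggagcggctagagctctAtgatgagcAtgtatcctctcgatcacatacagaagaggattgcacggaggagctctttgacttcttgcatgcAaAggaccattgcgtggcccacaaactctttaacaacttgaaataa
Of the 50-base windows of the UQCRHL transcript, 53.7% occur unchanged in UQCRH, and of those of the UQCRH transcript 33.4% occur in UQCRHL. Reads from these windows cannot tell the genes apart. The shares count unchanged windows only, so they do not bound the uncertainty of either value if reads with mismatches were placed. How such reads were assigned is not stated, and the part of shared reads in the rise of UQCRHL was not tested. UQCRH lies at chr1:46769370-46782448 on the plus strand and UQCRHL at chr1:16133664-16135843 on the minus strand (GRCh37). UQCRH was 1.66 ± 0.092 times as high as UQCRHL (SD, n = 10 samples, range 1.5 to 1.77).

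NDUFC2-KCTD14, a readthrough locus that joins the exons of the complex I subunit NDUFC2 to those of the neighbouring gene KCTD14, was the only member to fall below vehicle by the test. It was at 20.1 and 20.6 RPKM in vehicle, 20.4 and 19.2 after Dex 2 h, 17.7 and 17.0 after Dex 4 h, 20.4 and 19.9 after CpdA 2 h, and 22.5 and 22.2 after CpdA 4 h. The Dex 4 h samples were below all others and the CpdA 4 h samples above all others. The log2 difference from vehicle was -0.23 ± 0.05 (SE, adjusted p = 0.0057) after Dex 4 h and 0.14 (adjusted p = 0.065) after CpdA 4 h, and Dex was below CpdA at 4 h by 0.37, a difference of -0.37 (adjusted p = 0.00028). The fall after Dex 4 h missed the threshold with samples scaled to the same median (-0.16, adjusted p = 0.059). It also missed it with only the 4 samples of the comparison (adjusted p = 0.083). Of its transcript windows, 60.5% also occur in NDUFC2 and 29.9% in KCTD14, and how reads were divided among these genes was not stated. NDUFC2 itself was at 17.9 to 21.4 RPKM over the 10 samples and differed from vehicle by 0.15 after Dex 4 h (adjusted p = 0.096), while KCTD14, at 2.01 and 1.77 in vehicle and 0.527 and 1.05 after Dex 4 h, differed by -1.23 (adjusted p = 0.048).

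**Figure D5:**
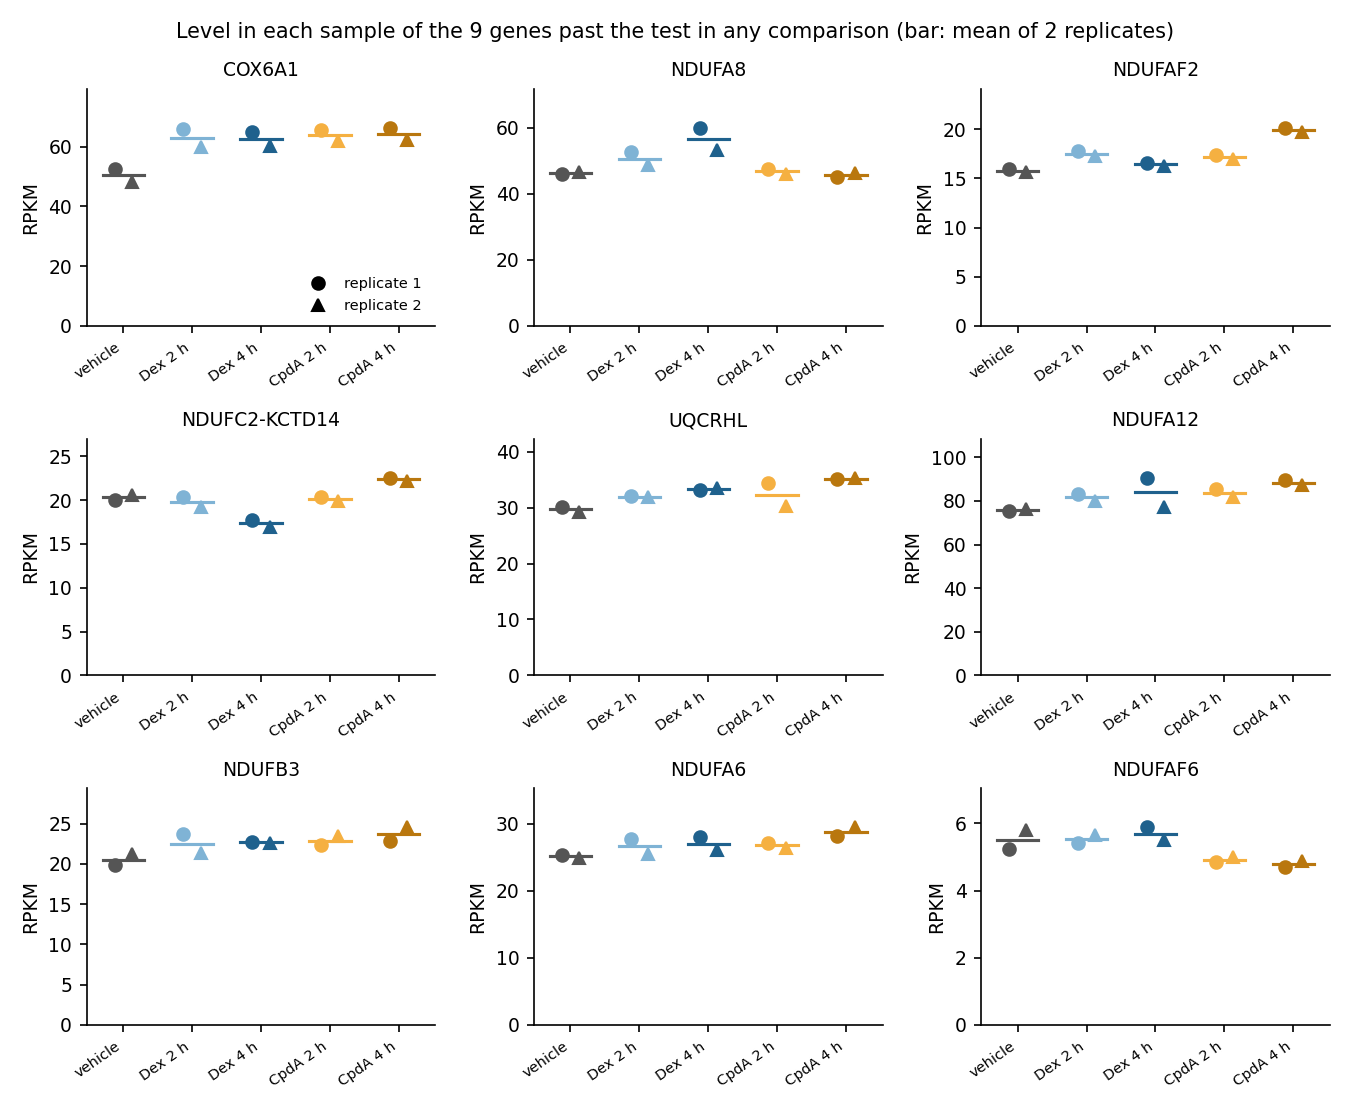
RPKM in each of the 10 samples (replicate 1 circles, replicate 2 triangles, bars for group means, axes from 0) of the 9 members past the test in any comparison. COX6A1 is lowest in both vehicle samples, NDUFA8 highest in both Dex 4 h samples, and NDUFAF2 and NDUFC2-KCTD14 highest in both CpdA 4 h samples.

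The promoters of COX6A1, NDUFA8 and NDUFAF2 are shown because these genes had the largest increases. Each stretch runs from 250 bases before to 50 bases after the RefSeq start of the gene (GRCh38.p14), 5′ to 3′ along the gene's strand, at chr12:120437863-120438162 (plus) for COX6A1, chr9:122159730-122160029 (minus) for NDUFA8 and chr5:60944955-60945254 (plus) for NDUFAF2. Capitals mark matches to the motifs searched on both strands.
COX6A1: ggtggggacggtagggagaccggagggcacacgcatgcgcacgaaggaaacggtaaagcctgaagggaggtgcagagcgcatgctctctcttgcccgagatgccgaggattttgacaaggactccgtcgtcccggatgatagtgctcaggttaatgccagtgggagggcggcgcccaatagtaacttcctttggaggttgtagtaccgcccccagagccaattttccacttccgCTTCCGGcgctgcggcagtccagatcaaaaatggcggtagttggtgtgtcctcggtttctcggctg
NDUFA8: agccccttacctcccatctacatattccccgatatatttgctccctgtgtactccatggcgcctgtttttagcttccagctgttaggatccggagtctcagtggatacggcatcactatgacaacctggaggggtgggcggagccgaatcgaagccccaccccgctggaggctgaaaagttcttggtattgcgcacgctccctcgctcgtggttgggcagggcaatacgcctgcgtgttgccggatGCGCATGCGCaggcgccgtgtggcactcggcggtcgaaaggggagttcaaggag
NDUFAF2: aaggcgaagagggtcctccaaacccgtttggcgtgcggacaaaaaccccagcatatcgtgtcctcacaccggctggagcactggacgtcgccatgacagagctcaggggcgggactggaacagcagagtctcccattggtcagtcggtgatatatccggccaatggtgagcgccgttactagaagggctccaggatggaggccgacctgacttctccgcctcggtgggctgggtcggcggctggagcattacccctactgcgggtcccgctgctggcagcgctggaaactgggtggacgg
The capitals in COX6A1 are an ETS core (CCGGAAG, here on the other strand), the element bound by NRF2 (GABP), and those in NDUFA8 an NRF1 element (GCGCNTGCGC), while NDUFAF2 held no match. Promoters of 76 of the 95 members could be matched. An NRF1 element was present in 17 of them (22.4%), against 6.28% of all 27305 promoters and 12.2% of the 9883 matched to genes tested. An ETS core was present in 20 (26.3%, against 10.7% and 20.3%), and a YY1 element (AAGATGGC) in 11 (14.5%, against 3.03% and 5.7%). The palindromic glucocorticoid response element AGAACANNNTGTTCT was in 0 of the 76 and in 1 of all promoters. No overlap between motifs was removed, and these matches are a description of letters in a window.

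Dex and CpdA were then compared with each other at the same time, though at different doses (100 nM and 10 μM). At 2 h, limma called 0 of 89 members in either direction, beside 7.53% of all genes higher in Dex and 6.18% higher in CpdA, with 1 member higher and 3 lower at an unadjusted p under 0.05. The median difference, Dex minus CpdA, was -0.02 on the log2 scale, and the interval lay within 1.2-fold for 81 members. At 4 h, 2 members were higher in Dex (NDUFA8 and NDUFAF6) and 2 higher in CpdA (NDUFAF2 and NDUFC2-KCTD14), beside 15.4% and 18.0% of all genes. Both counts are smaller than these shares of 89 genes would give, and the interval lay within 1.2-fold for 74 members. At an unadjusted p under 0.05, 3 members were higher in Dex and 4 higher in CpdA. NDUFAF6, an assembly factor of complex I, was at 5.88 and 5.50 RPKM after Dex 4 h and 4.69 and 4.87 after CpdA 4 h, with vehicle at 5.22 and 5.80. Its samples did not overlap between the ligands (log2 difference 0.25, adjusted p = 0.022), and the call was lost without Dex 4 h replicate 1 or either CpdA 4 h sample (adjusted p = 0.083, 0.13 and 0.071). The counts at 4 h depended on 1 Dex library, with 2 members higher and 13 lower in Dex without Dex 4 h replicate 1, and 9 higher and 2 lower without replicate 2. Of all genes, 15.2% were higher and 17.1% lower in the former setting, and 18.7% and 22.1% in the latter.

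Between the time points, 0 members were higher and 1 was lower at 4 h than at 2 h of Dex, beside 4.55% and 9.02% of all genes. At an unadjusted p under 0.05, 3 members were higher and 2 lower. Under median scaling the 1 call was a gene that was higher, where 6.81% of all genes were higher and 5.98% lower. The gene that fell as reported was NDUFC2-KCTD14 (-0.19, adjusted p = 0.027), and this call was lost without either Dex 2 h sample (adjusted p = 0.18 and 0.051). With Dex 4 h replicate 2 left out, 21 members were called, 20 of them higher at 4 h and 1 lower, beside 9.64% and 17.4% of all genes in that setting. For CpdA, 1 member (NDUFAF2) was higher and 0 were lower at 4 h, beside 5.21% and 7.2% of all genes. At an unadjusted p under 0.05, 5 members were higher and 0 lower at 4 h of CpdA. The time change differed between the ligands for 2 of 89 members, NDUFAF2 and NDUFC2-KCTD14, where 6.6% of all genes passed that test. The median log2 difference of the members between 4 h and 2 h was 0.04 for Dex and 0.03 for CpdA.

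Genes that build or regulate the complexes without being part of them were counted separately, and differences between these counts and those of the members were not tested. Unlike those of the members, the calls of these assembly factors and regulators were not examined under alternative settings or with a sample left out. This includes calls near the threshold, such as those of GABPB1 after Dex 2 h and HIF1A after CpdA 4 h. Of 43 other assembly factors and related genes, 1 rose and 6 fell after Dex 4 h (beside 9.26% and 18.2% of all genes), and 2 rose and 1 fell after CpdA 4 h (beside 6.76% and 13.8%). UQCC1, needed for the assembly of complex III, was at 25.1 and 22.6 RPKM in vehicle, 18.1 and 17.8 after Dex 4 h, and 25.1 and 25.9 after CpdA 4 h (-0.40 for Dex 4 h, adjusted p = 0.00043). The Dex 4 h samples of UQCC1 were below all others. PET100, needed for complex IV assembly, was at 7.41 and 7.58 in vehicle and 9.35 to 13.2 in the 8 treated samples, and it rose in all 4 comparisons (0.67, 0.51, 0.41 and 0.41 for Dex 2 h, Dex 4 h, CpdA 2 h and CpdA 4 h, adjusted p = 0.002, 0.0046, 0.042 and 0.017). PET117, also tied to complex IV assembly, fell after Dex 4 h (-0.32) and CpdA 4 h (-0.43). CYCS, which encodes the electron carrier cytochrome c, rose after CpdA 4 h, from 13.1 and 14.0 to 16.6 and 16.1 (0.27, adjusted p = 0.010).

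Of 14 regulators, 13 were tested, and 3 rose and 4 fell after Dex 4 h, and 2 rose and 2 fell after CpdA 4 h, beside the same shares of all genes. PPARGC1A was low, at 0.272 and 0.204 RPKM in vehicle, 0.511 and 0.635 after Dex 2 h, 0.488 and 0.577 after Dex 4 h, and 0.210 to 0.393 after CpdA. Its Dex samples were above all others, but it reached the 0.5 RPKM of the filter in Dex samples alone and so entered the test through the groups where it was high, for which reason its calls after Dex, though among the counts, are not given as evidence. TFAM, the packaging and transcription factor of mitochondrial DNA, was at 14.5 and 15.2 in vehicle, 11.7 and 12.6 after Dex 4 h, and 13.9 and 14.4 after CpdA 4 h (-0.29 for Dex 4 h, adjusted p = 0.0027). GABPB1, a subunit of NRF2 (GABP), rose after Dex 2 h and 4 h (0.21 and 0.26, adjusted p = 0.049 and 0.0073), while PPRC1, a relative of PGC-1α, fell after Dex 4 h (-0.36, adjusted p = 0.0021). NRF1 itself was at 6.14 and 6.87 in vehicle, 5.42 and 5.54 after CpdA 4 h and 5.47 to 6.0 in the other treated samples, and it fell after CpdA 4 h (-0.24, adjusted p = 0.031), as did POLRMT, the mitochondrial RNA polymerase (-0.40, adjusted p = 0.0056). TFB2M, a mitochondrial transcription factor, fell after Dex 4 h (-0.25, adjusted p = 0.023). HIF1A, a subunit of the hypoxia-inducible factor, fell after Dex 4 h (-0.24, adjusted p = 0.0045) and rose after CpdA 4 h (0.15, adjusted p = 0.046). MYC, a growth regulator that also acts on mitochondrial genes, was at 89.7 and 75.3 in vehicle, 64.7 and 61.8 after Dex 2 h, 102 and 102 after Dex 4 h, 136 and 128 after CpdA 2 h, and 108 and 106 after CpdA 4 h. MYC was thus below vehicle after Dex 2 h (-0.38, adjusted p = 0.0097) and above it in the other 3 treated groups.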

How the data were processed

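RNA-seq of 10 samples was analysed, and the ChIP samples of the series are not analysed here. The authors aligned single-end reads with TopHat2 2.0.13, summarised them per gene in Partek 6.6 and deposited RPKM values, 1 table of 20668 genes per sample, with hg19 named as the build. How transcripts were combined and whether strand was used is not given in the sources used here. Groups came from the sample labels, which gave the vehicle samples no time point. The column headers of the vehicle values name 2 h for replicate 1 and 4 h for replicate 2, and both were kept as 1 group.

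RPKM values were transformed to log2(RPKM + 0.1) and genes with at least 0.5 RPKM in at least 2 samples were kept (12713 genes, 89 of them members). A group-means model over the 5 groups (5 residual degrees of freedom) was fitted in R 4.3.3 with limma 3.58.1 (eBayes with trend), with 8 two-sided contrasts and 1 interaction, with Benjamini-Hochberg adjustment of p over all genes kept. Called means an adjusted p under 0.05. The script was tested on simulated data. Errors of log2 differences are SEs, and since total reads were not given, no interval from counting was made.

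Genes named were, for each contrast, up to 5 called members in each direction, the 2 highest members of each complex, and fixed sets of isoforms and the SDH genes. Members and lists were chosen with earlier results of these data known. Roles were assigned by hand, and the lists of assembly factors and regulators are short selections. Positions came from a GENCODE annotation of GRCh37, transcript lengths from its transcripts, and 50-base windows were searched in both strands of the genome. Promoters came from RefSeq (GRCh38.p14). Alternatives covered pseudocounts of 1 and 0.01, filters, normalization, scaling, variance moderation, a replicate block, subsets of samples and leaving out each replicate.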

Additional observations from a re-analysis of the deposited data

Results flagged for a closer look

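The change from 2 h to 4 h differed between Dex and CpdA for 2 members, by the interaction term of the limma model over all genes. This term was fitted once, and neither result was repeated under an alternative setting or with a sample left out. NDUFAF2 went from 17.8 and 17.3 RPKM at 2 h to 16.6 and 16.3 at 4 h of Dex, and from 17.3 and 16.9 to 20.1 and 19.7 for CpdA, so that the time change in Dex minus that in CpdA was -0.31 on the log2 scale (adjusted p = 0.016). The 4 h samples of Dex were below both 2 h samples, and those of CpdA above both. NDUFC2-KCTD14 went from 20.4 and 19.2 to 17.7 and 17.0 RPKM in Dex and from 20.4 and 19.9 to 22.5 and 22.2 in CpdA, a difference of -0.34 (adjusted p = 0.017). Both genes share transcript sequence with other genes, 43.2% of 50-base windows with a pseudogene for NDUFAF2 and 60.5% with NDUFC2 for NDUFC2-KCTD14, and the part of shared reads in these values was not tested.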

How the results depend on the processing

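Each of the 8 comparisons was repeated under 12 kinds of alternative. Among values of single named genes, 201 kept their direction and their side of the threshold, 54 kept their direction but lost the call, and 0 changed direction. Among counts of called members 77 stayed within 1.5 times and 43 did not, and among medians 119 stayed within the spread between replicates (0.0539) and 9 did not.

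The counts that moved are given in the order of the settings. Quantile normalization gave 4 called members for Dex 2 h (1 as reported), 7 for Dex 4 h (3 as reported), 12 for CpdA 4 h (6 as reported), 2 for Dex 4 h against 2 h (1 as reported) and 2 for CpdA 4 h against 2 h (1 as reported). In the same order, the shares of all genes called higher and lower were 5.06% and 5.57%, 11.2% and 13.8%, 9.46% and 10.8%, 6.21% and 6.8%, and 6.51% and 6.65%. Median-of-ratios scaling gave 3, 10, 11, 3 and 2 for the same comparisons. The shares of all genes called higher and lower were then 4.77% and 5.11%, 12.5% and 14.1%, 8.77% and 11%, 6.36% and 6.88%, and 5.86% and 6.8%. Median scaling gave 8 (8 higher, 0 lower) for Dex 4 h and 10 for CpdA 4 h, where 12.6% and 12.6%, and 10.9% and 8.64%, of all genes were higher and lower. It moved the median log2 difference to 0.114 for Dex 4 h, 0.132 for CpdA 4 h and 0.09 for Dex 4 h against 2 h. Without a filter, without a trend and without moderation of the variance, CpdA 2 h gave 0 (1 as reported). Of all genes, 0.876%, 1.57% and 0.85% were then higher and 1.69%, 3.56% and 2.05% lower. Without a trend and without moderation, CpdA 4 h gave 3, beside 6.04% and 5.48% of all genes higher and 12.8% and 10.2% lower. Without moderation Dex 4 h against 2 h gave 0, beside 2.89% of all genes higher and 4.92% lower. With only the 4 samples of a comparison, the counts were 10 for CpdA 4 h, 2 for Dex against CpdA at 2 h (0 as reported), 0 for Dex 4 h against 2 h and 5 for CpdA 4 h against 2 h. In the same order, the shares of all genes higher and lower were 6.65% and 12.5%, 10.9% and 8.87%, 2.24% and 3.23%, and 12.3% and 15.3%. The causes were not tested.

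Over all genes tested, deviations of same-numbered samples correlated at -0.0568 to 0.198 over 10 pairs of groups, so that the numbers were not taken to pair the samples. Even so, among the members replicate 1 lay above replicate 2 for most genes in all 4 treated groups. Over all genes under 1 kb, replicate 1 was the higher for 67.2% after Dex 2 h, 82.3% after Dex 4 h, 66.8% after CpdA 2 h and 61.7% after CpdA 4 h. Over 4 kb these shares were 41.4%, 21.2%, 33.2% and 37.3%. A difference between replicates that moved with length was thus present in every treated group, and the model as reported held no replicate term. The fit with the replicate block gave 3 called members for Dex 2 h, 7 for Dex 4 h and 2 for CpdA 4 h against 2 h, and left the other counts within 1.5 times. For these comparisons 4.86% and 6.58%, 10.2% and 19.4%, and 6.25% and 8.53% of all genes were then higher and lower.

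Leaving out 1 replicate at a time gave counts of 0 to 1 for Dex 2 h, 2 to 29 for Dex 4 h, 0 to 1 for CpdA 2 h, 1 to 4 for CpdA 4 h, 3 to 15 for Dex against CpdA at 4 h, 0 to 21 for Dex 4 h against 2 h and 0 in each case for CpdA 4 h against 2 h. The median log2 difference then ran from -0.027 to 0.112 for Dex 4 h, from -0.093 to 0.05 for Dex against CpdA at 4 h and from -0.032 to 0.111 for Dex 4 h against 2 h, with the extremes from leaving out Dex 4 h replicate 1 or 2. With 2 samples a group, leaving out 1 assumes that the lone sample varies like the others.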

Other observations

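Pseudogenes that the choice of members left out were also read at high levels. ATP5EP2, a copy of ATP5E on chromosome 13, was at 116 to 141 RPKM over the 10 samples, and it shares 14.0% of its 50-base windows with the ATP5E transcript. UQCRBP1, a copy of the complex III subunit UQCRB, was at 12.5 and 12.8 RPKM in vehicle and 16.0 and 17.0 after CpdA 4 h, a log2 difference of 0.38 (limma, adjusted p = 0.0012). UQCRB itself was at 10.4 and 10.7 RPKM in vehicle and 11.4 and 11.5 after CpdA 4 h and did not pass the test. UQCRBP1 was also higher after Dex 4 h, by 0.18 (adjusted p = 0.031).

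Subunits of other large complexes are given for comparison, with no test between the lists. After CpdA 4 h the median log2 difference was 0.10 over 80 cytosolic ribosomal protein genes, 0.06 over 46 proteasome genes and -0.02 over 77 mitochondrial ribosomal protein genes, beside 0.07 over the members. After Dex 4 h these medians were 0.07, 0.03 and -0.02, beside 0.04. Of the 77 mitochondrial ribosomal protein genes, which belong to the same organelle, 3 rose and 10 fell after Dex 4 h, beside 9.26% and 18.2% of all genes, and 3 rose and 5 fell after CpdA 4 h, beside 6.76% and 13.8%.

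NDUFA5, named after its values were seen, had the lowest level of the complex I subunits, at 2.24 to 2.68 RPKM. Its annotated transcript is 5496 bases long, and which transcript the deposited values were scaled to is not stated.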
